A study of Danio rerio with 18 samples.

Results

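The nuclear pore and nuclear transport mRNAs of the early zebrafish embryo were followed through 45 of the 27015 genes of the deposited gene table, chosen by symbol. They comprised 22 nucleoporins (symbols of nup followed by a number, and NDC1) and 23 transport receptors, of which 7 were importin alpha genes (KPNA), 9 belonged to the importin beta family (KPNB1 and the IPO genes) and 7 were exportins (XPO). All 45 had at least 10 normalized counts in all 18 libraries. Pooled eggs and whole embryos of the wild-type AB strain were sampled at the stage labelled egg, at the 1-cell, 16-cell and 128-cell stages, and at 3.5 and 5.3 hours post fertilization (hpf). At each of the 6 stages, ribosomal-RNA-depleted RNA gave 1 library from the polysome-bound fraction, 1 from the unbound fraction and 1 from unfractionated RNA. Polysomes are mRNAs carrying several ribosomes. Each library was scaled by its own size factor, so the bound over unbound ratio places an mRNA relative to the bulk of mRNAs. It does not give the share of an mRNA held in each fraction. With 1 library per stage and fraction, p-values below set an effect against its spread between stages, and nothing in the labels speaks of repeat pools. limma moderated that spread, and each SE below, with the spread of other genes of similar level. The slope fit from egg to 128-cell left only 2 residual degrees of freedom, so its p-values and SEs rest largely on other genes.

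Nuclear pore complexes are channels through the nuclear envelope. The Y complex and the inner ring form their scaffold, membrane nucleoporins anchor it, nucleoporins rich in phenylalanine-glycine repeats fill the central channel, and further subunits extend to the cytoplasmic and nuclear sides. Importin alpha binds classical nuclear localization signals and joins importin beta (KPNB1) to cross the pore, other importin beta relatives carry cargo directly, exportins carry cargo out, and the GTPase Ran sets the direction. Embryos of egg-laying vertebrates build very many nuclei in a short time from maternal stores. Within importin alpha, KPNA2 and kpna7 belong to the alpha-1 subfamily, called oocyte-type here because mammalian KPNA7 is known from oocytes and embryos and the frog counterpart of KPNA2 from eggs. KPNA1, KPNA3, KPNA4, KPNA5 and KPNA6 are called somatic here. Capitals and lower case follow the symbol reference, and all are zebrafish genes.

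Relative to the bulk of mRNAs, nuclear pore mRNAs lay on the polysome side. Over the 6 stages 18 of the 45 mRNAs were higher in the bound than in the unbound fraction and none was lower (limma on log2 of the normalized count plus 1 with stage as a block, Benjamini-Hochberg adjusted p under 0.05 over all genes tested), while 8.46% of all genes tested were higher and 7.1% lower. The nucleoporins gave 12 of these calls, among them all 5 inner ring subunits, and the 23 transport receptors gave 6. The calls of NUP188, NUP205 and NUP35 in the inner ring and of XPO6 each ended when the egg, 1-cell, 16-cell or 128-cell stage was left out. Those of KPNB1, NUP88 and ipo4 each ended in 6 alternatives, among them leaving out the 16-cell stage. Scaling by library totals ended the calls of the inner ring subunits NUP155, NUP188 and NUP205. It also ended those of NUP88, XPO1, KPNB1, ipo4 and KPNA6. The median log2 ratio was 0.90 for nucleoporins, 0.92 for exportins, 0.52 for importin alpha, 0.12 for the importin beta family and −0.01 for all genes tested. These ratios are relative to the bulk of mRNAs. When the libraries were scaled to 4 control-like entries of the transcript files in place of the authors' size factors, the median of all genes moved to −1.35 and that of nucleoporins to −0.58, so the sign of the nucleoporin ratio turned while its distance to the median of all genes was 0.77 against 0.91. Under that scaling none of the 45 was called higher and 14 were called lower. Of all 24893 genes tested, 161 were then called higher and 12588 lower, so the lower calls were a shift of the whole table. The ratio changed sign for 29 of the 45, among them 9 of the 18 called.

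The inner ring and the Y complex together make the scaffold of the pore. NUP93, the inner ring subunit that recruits its partners, had 6841, 6619, 6395, 5267, 4685 and 6894 normalized counts in the bound libraries from egg to 5.3 hpf and 1949, 2043, 1306, 1677, 1579 and 3094 in the unbound ones. Every bound library was above every unbound one, and the log2 ratio was 1.70 ± 0.23 (SE; limma adjusted p = 0.0011). NUP107, a core Y complex subunit, had 11199, 10994, 12519, 11937, 10424 and 7662 counts in the bound and 3365, 3780, 3823, 2130, 2397 and 3078 in the unbound libraries. Here too the fractions did not overlap, with a log2 ratio of 1.82 ± 0.24 (limma adjusted p = 0.0011). The inner ring subunits NUP155, NUP188 and NUP205 were called at log2 ratios of 1.19, 0.85 and 0.84, also without overlap between fractions. Within the Y complex the subunits differed: NUP160 was called at 1.45, whereas NUP133, NUP37, NUP43 and NUP85 had log2 ratios of 0.46, 0.32, 0.21 and 0.07 and did not pass the test.

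NUP98, a repeat-rich nucleoporin of the central channel, had one of the steepest ratios. Its bound libraries held 37716, 36744, 29924, 26436, 26454 and 28517 normalized counts from egg to 5.3 hpf and its unbound libraries 4580, 5937, 7037, 6786, 7811 and 15932. The bound over unbound ratio was 8.24-fold in the egg and 1.79-fold at 5.3 hpf, with an average log2 ratio of 2.05 ± 0.32 (limma adjusted p = 0.0021) and no overlap between the fractions. The channel subunit nup54 had 1413 to 2092 bound and 193 to 561 unbound counts, with a log2 ratio of 1.84 ± 0.30 (limma adjusted p = 0.0027). Its channel partners NUP58 and nup62l, at log2 ratios of 0.27 and 0.18, did not pass the test. On the cytoplasmic side, where mRNA export complexes are remodelled, nup214 had 8570 to 12286 bound and 2793 to 4207 unbound counts and a log2 ratio of 1.64 ± 0.23 (limma adjusted p = 0.0013). NUP88, which anchors nup214, was called at 0.97, and nup42 at −0.30 did not pass. In the transmembrane ring, NUP210 had 15538, 12186, 14860, 9915, 3574 and 4523 bound and 2110, 2424, 2756, 2153, 2495 and 3159 unbound counts, a log2 ratio of 1.81 ± 0.35 (limma adjusted p = 0.0060). Its bound libraries fell close to the unbound ones at the last stages without reaching them. Neither nuclear basket side subunit passed, with log2 ratios of 0.96 for NUP50 and 0.47 for nup153.

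**Figure D1:**
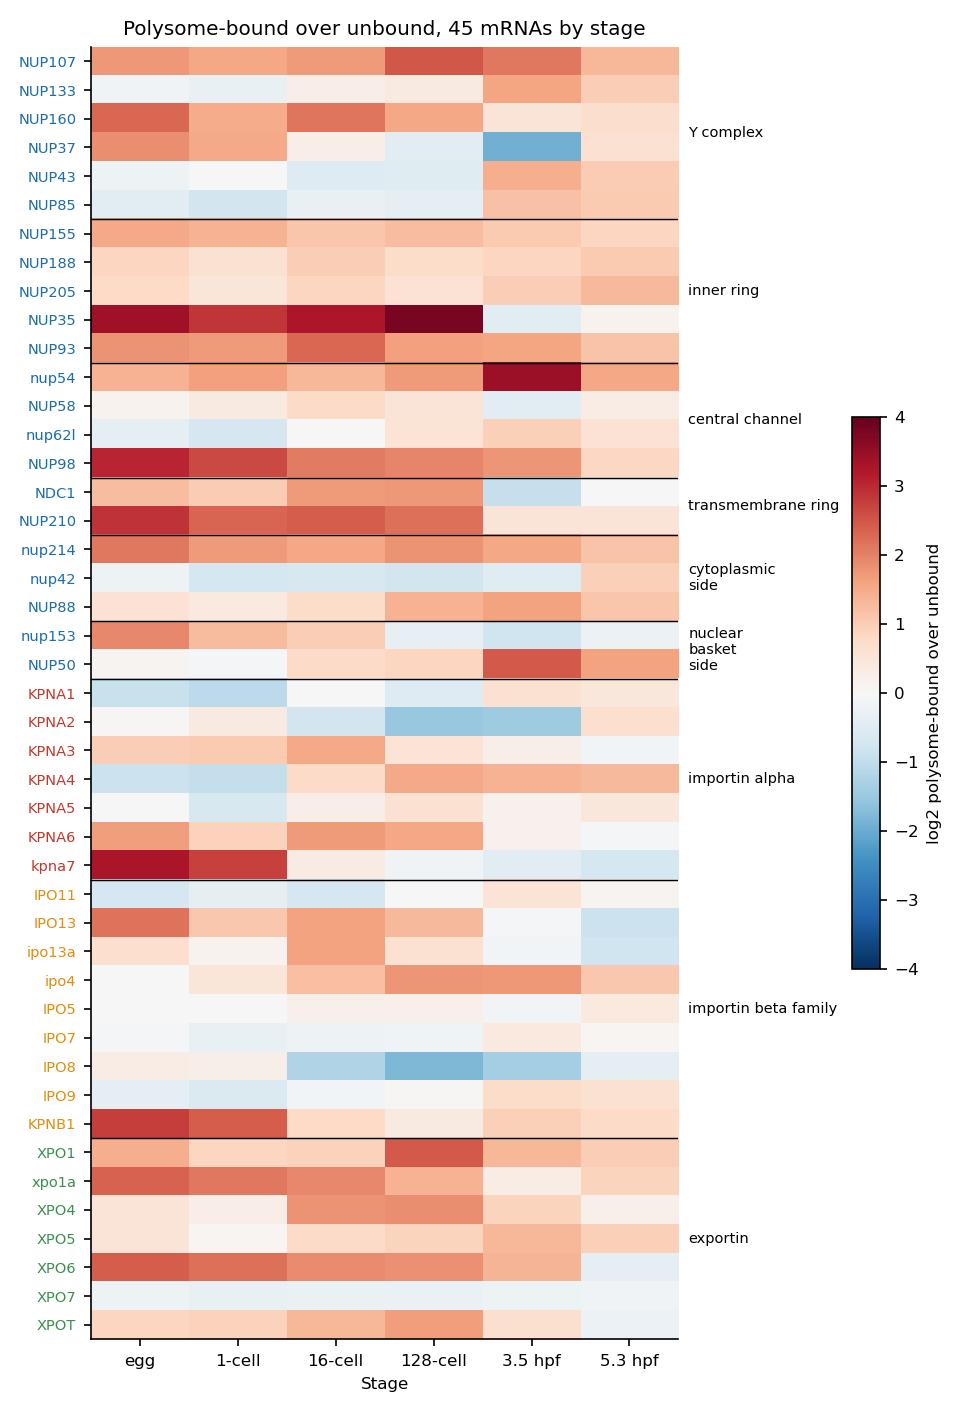
Log2 of polysome-bound over unbound normalized count (colour, scale at the right) for the 45 mRNAs (rows, grouped by subcomplex or receptor class) at 6 stages (columns), 1 library per stage and fraction. Most inner ring rows stay red at all stages, NUP35 drops from 3.80 at 128-cell to −0.41 at 3.5 hpf, and kpna7 and KPNA4 run in opposite directions; with control-entry scaling the medians over stages turn negative.

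The transport receptors were divided. Among exportins, XPO1, the receptor for leucine-rich export signals, its paralog xpo1a and XPO6, which exports actin, were called at log2 ratios of 1.33, 1.50 and 1.56. Reads of XPO1 and xpo1a may be shared between these near copies, so their split is uncertain, and the same holds for IPO13 and ipo13a. The tRNA exporter XPOT, the microRNA precursor exporter XPO5 and XPO4 had ratios of 0.86, 0.75 and 0.92 with limma adjusted p of 0.0517, 0.0508 and 0.0584, just outside the threshold. XPO7, with 2388 to 3199 bound and 2691 to 3863 unbound counts, was the 1 member that lay lower in the bound fraction at all 6 stages, at a log2 ratio of −0.23 that was not called. In the importin beta family only KPNB1 (1.35) and ipo4 (1.04), which carries histones in mammals, were called.

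The abundant import receptors IPO5 and IPO7, importers of ribosomal proteins, had 17319 to 29954 and 16200 to 19386 normalized counts in the bound libraries and 15249 to 22797 and 13566 to 22146 in the unbound ones. Their log2 ratios were 0.12 ± 0.26 and −0.04 ± 0.26 (limma adjusted p = 0.80 and 0.95), with bound and unbound values overlapping. Of importin alpha, KPNA6 alone was called, at 0.99 ± 0.30 (limma adjusted p = 0.0459). Its call ended in 9 of 15 alternative settings, among them library totals and the omission of the egg, 1-cell, 16-cell or 128-cell stage. KPNA3, KPNA4, KPNA5, KPNA1, KPNA2 and kpna7 had log2 ratios of 0.70, 0.52, 0.14, −0.23, −0.43 and 0.83 and did not pass.

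**Figure D2:**
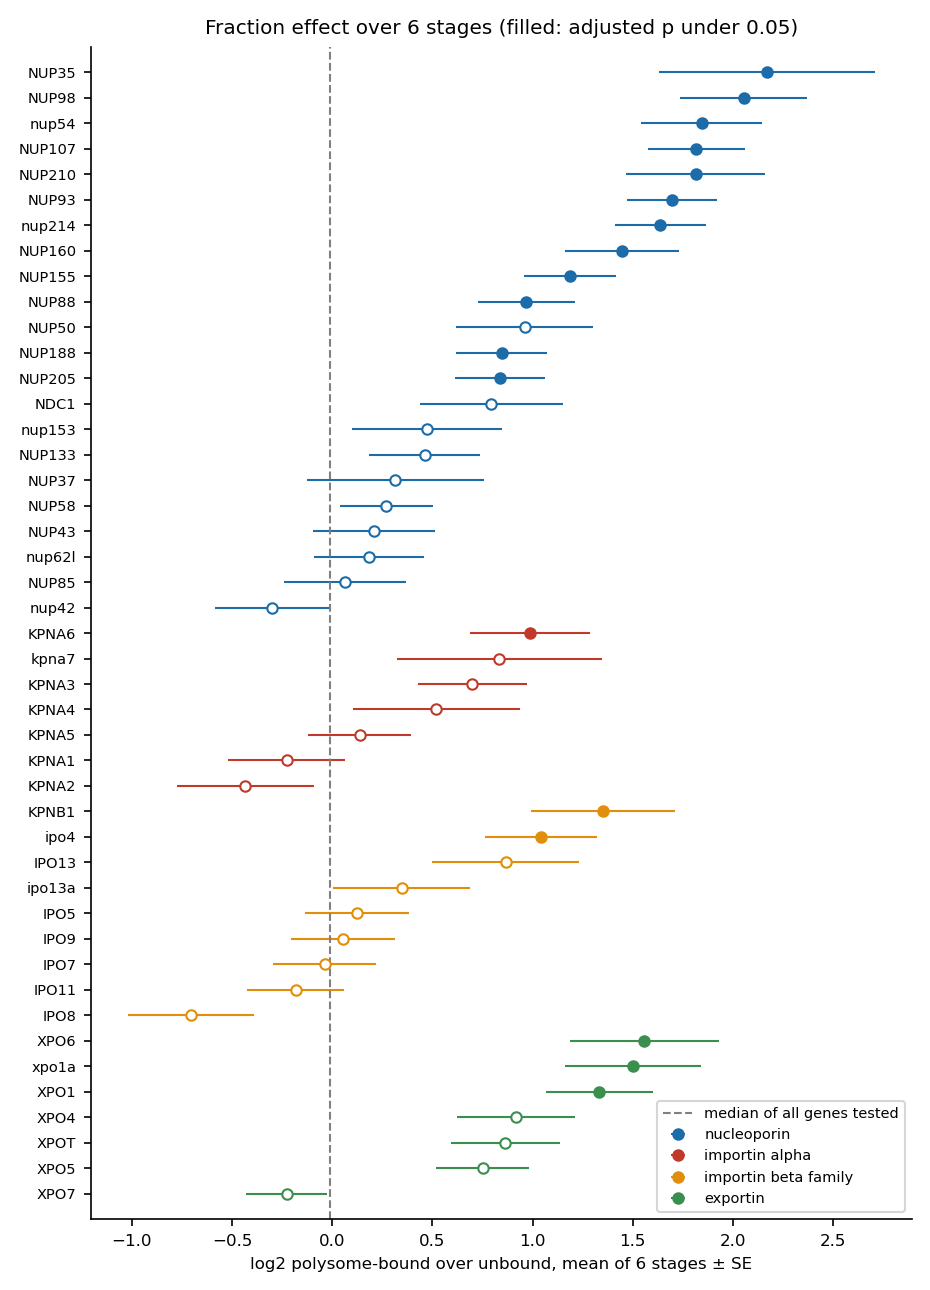
Log2 of bound over unbound, averaged over 6 stages, with its SE (horizontal axis) for the 45 mRNAs, coloured by class; filled points passed limma at adjusted p under 0.05 and the dashed line is the median of all genes tested. Nucleoporins fill the right side with 12 filled points, and the receptors have 6; under control-entry scaling no point would be filled on the right.

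The division between nucleoporins and receptors was compared stage by stage, as counts and medians without a test. Of 22 nucleoporins, between 16 and 20 had more normalized counts in the bound than in the unbound library at any stage, and 11 did so at all 6 stages. Of 23 receptors the range was 14 to 17, and 5 did so at all 6. Together 16 of the 45 were above at all 6 stages, against 9.18% of all genes tested. Stage by stage, 12623 of the 24893 genes tested were above in the egg, 13176 at 16-cell, 10595 at 3.5 hpf and 8711 at 5.3 hpf. In 9 mRNAs, all nucleoporins, every bound library exceeded every unbound one, as did 3.96% of all genes tested. The median log2 ratio of nucleoporins was 1.31 in the egg and 0.98 at 5.3 hpf, while that of receptors moved between 0.76 at 16-cell and 0.19 at 5.3 hpf. That of all genes tested also went down, from 0.03 in the egg to −0.36 at 5.3 hpf. The difference between the class medians was 0.81, 0.87, 0.23, 0.45, 0.63 and 0.78 from egg to 5.3 hpf, positive at each stage and smallest at 16-cell. The receptor classes differed within this pool. Exportins had a median of 1.32 at 16-cell and 1.67 at 128-cell, against 0.99 and 1.04 for nucleoporins, and were below nucleoporins at the other stages. The pooled difference thus does not hold for exportins at 16-cell and 128-cell.

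**Figure D3:**
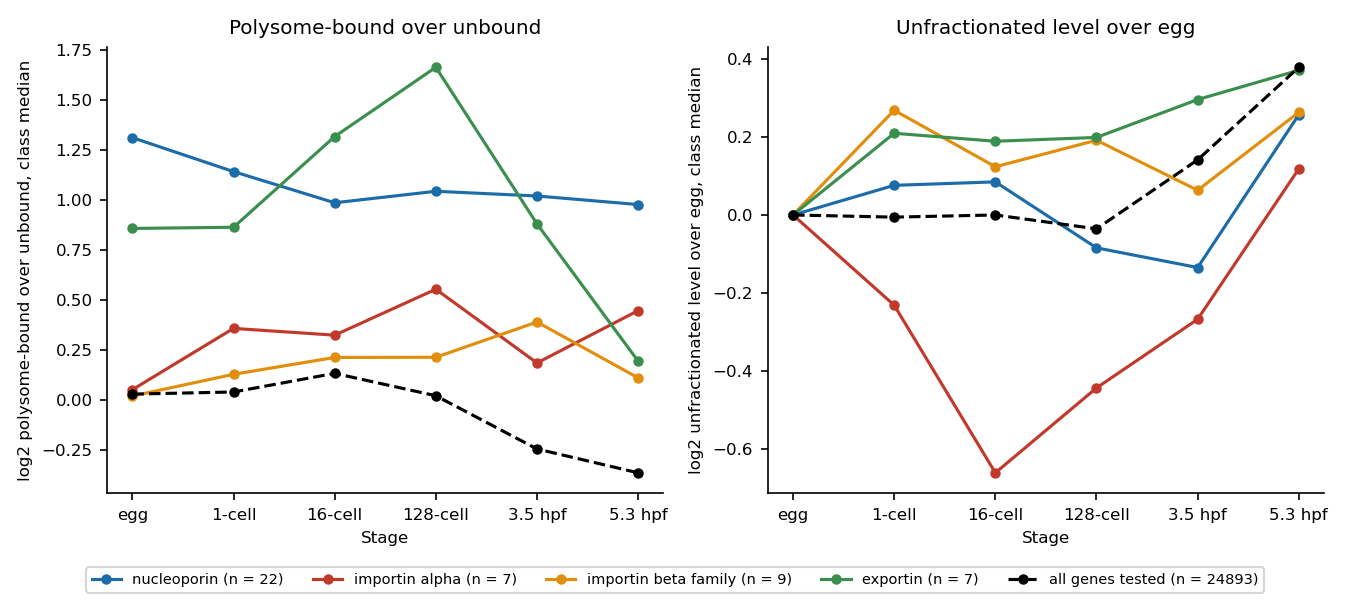
Left, the median log2 of bound over unbound for each class at each stage; right, the median log2 of the unfractionated level over the egg; the dashed line is the median of all 24893 genes tested. Nucleoporins stay between 0.98 and 1.31 on the left, and exportins peak at 1.67 at 128-cell; control-entry scaling shifts the whole left panel downwards.

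The oocyte-type importin alpha mRNA kpna7 had a falling bound over unbound ratio along the cleavage stages. From egg to 5.3 hpf its bound libraries held 47997, 41098, 10085, 8574, 2259 and 432 normalized counts. Its unbound libraries held 4983, 6236, 8052, 9552, 3117 and 697. The bound value was therefore 9.63-fold the unbound one in the egg, 6.59-fold at 1-cell, 1.25-fold at 16-cell and 0.898-fold at 128-cell. The log2 ratio fell by 1.27 ± 0.16 per stage step from egg to 128-cell, taking the 4 stages as equal steps (limma slope, adjusted p = 0.0021). Most of the fall came between 1-cell and 16-cell. The call held in 11 of 13 alternatives and ended with the control entries and with no mean-variance trend. Unfractionated RNA held 13299, 10404, 7206 and 7558 counts over the same stages, so the total was 1.76-fold lower at 128-cell than in the egg while the bound level was 5.60-fold lower and the unbound level 1.92-fold higher. Whether kpna7 mRNA moved between fractions or was lost from the bound one was not tested. After 128-cell the unfractionated level went on to 4087 at 3.5 hpf and 692 at 5.3 hpf.

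The somatic KPNA4 had a ratio that went the other way over the same stages. Its bound libraries held 23185, 20350, 51616, 52730, 40877 and 60800 normalized counts and its unbound libraries 42439, 39486, 30457, 18572, 15548 and 24882. On the authors' scale KPNA4 was thus lower in the bound library in the egg and at 1-cell and higher at each later stage. The log2 ratios were −0.87, −0.96, 0.76, 1.51, 1.39 and 1.29. With the control entries the log2 ratio of KPNA4 over all stages was −0.96, against 0.52 in the main fit, so where the fractions cross depends on the scaling. The slope from egg to 128-cell was 0.89 ± 0.16 per step (limma adjusted p = 0.0077). That call ended with the control entries, with no mean-variance trend and without the 128-cell stage. The slope lay between 0.80 and 1.23 in the alternatives. Unfractionated KPNA4 had 30852, 21186, 23544, 15621, 23189 and 33483 counts and did not pass between late and early stages (0.33 ± 0.29, limma adjusted p = 0.40). The ratio of kpna7 to KPNA4 normalized counts, which is not corrected for length and is read for its change alone, went from 2.07 in egg polysomes to 0.195 at 16-cell and 0.007 at 5.3 hpf, and in unbound RNA from 0.117 in the egg to 0.514 at 128-cell, 0.20 at 3.5 hpf and 0.028 at 5.3 hpf. KPNA4 matched no transcript alone, and whether its normalized counts hold a further correction that differs by library is not known.

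KPNA2, the other oocyte-type gene, also had a falling ratio along the cleavage stages. Its bound libraries held 21126, 23778, 12630, 7749, 2281 and 6678 normalized counts and its unbound libraries 20377, 18544, 21175, 22322, 6108 and 4175. On the authors' scale the fractions were level in the egg and the bound value was the lower one from 16-cell to 3.5 hpf. The slope was −0.58 ± 0.15 per step (limma adjusted p = 0.0345). That call ended in 6 of 12 alternatives, including median centring and leaving out 16-cell or 128-cell. KPNA6 had log2 ratios of 1.66, 0.93, 1.69, 1.55, 0.17 and −0.09, KPNA3 of 0.99, 1.03, 1.52, 0.55, 0.23 and −0.12, and KPNA5 of −0.03, −0.64, 0.26, 0.60, 0.19 and 0.45. KPNA1 had −0.90, −1.04, 0.02, −0.51, 0.61 and 0.47. None of these 4 somatic genes passed the slope test, at 0.04, −0.08, 0.28 and 0.22 per step for KPNA6, KPNA3, KPNA5 and KPNA1.

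**Figure D4:**
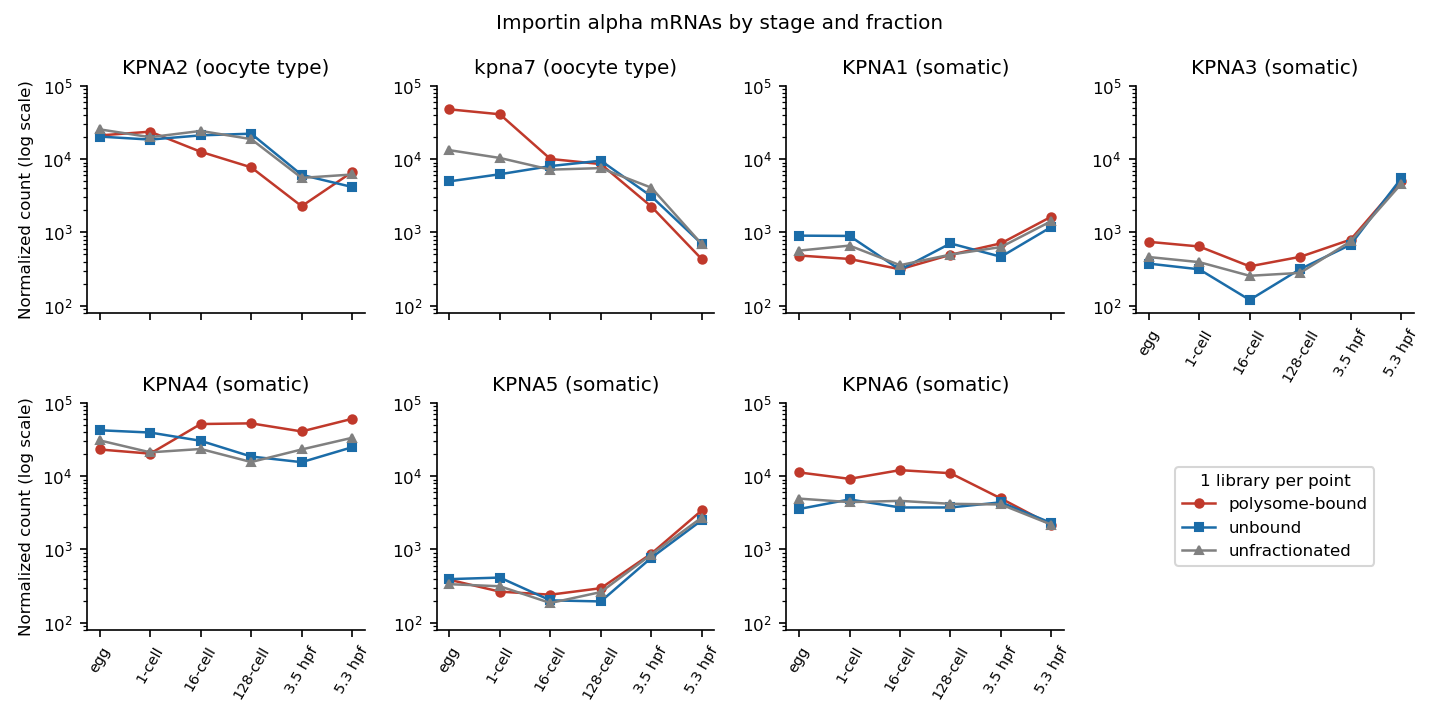
Normalized counts on a log axis for the 7 importin alpha mRNAs at 6 stages in polysome-bound, unbound and unfractionated libraries, 1 library per point. The bound line of kpna7 drops from 47997 to 432 and crosses the unbound line, that of KPNA4 crosses upwards after 1-cell, and KPNA3 and KPNA5 rise at 5.3 hpf in all fractions. Where bound and unbound lines cross depends on the authors' scaling, and control-entry scaling would move them against each other.

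In total RNA both oocyte-type importin alpha genes fell at the late stages and 2 of the 5 somatic ones rose. Of all genes tested, 13.0% fell and 22.5% rose in this comparison. In the unfractionated libraries the oocyte-type KPNA2 had 25571, 19987, 24342 and 18811 normalized counts from egg to 128-cell and 5560 and 6184 at 3.5 and 5.3 hpf. It was 3.75-fold lower at the late stages, a log2 change of −1.91 ± 0.20 (limma on 6 libraries, late against early stages, adjusted p = 0.0009). The change of kpna7 was −2.47 ± 0.63 (limma adjusted p = 0.0215). The somatic KPNA5 had 335, 314, 185 and 262 counts early and 851 and 2727 late, a rise of 2.51 ± 0.50 (limma adjusted p = 0.0089). KPNA3 had 461, 393, 256 and 280 early and 755 and 4591 late, a rise of 2.46 ± 0.66 (limma adjusted p = 0.0255). KPNA1 (0.90 ± 0.42) and KPNA6 (−0.60 ± 0.28) did not pass. In whole embryos, fewer cells of a type and less RNA per cell cannot be told apart. Without 5.3 hpf the change of KPNA3 was 1.16 and that of kpna7 −1.19, and both calls ended. The call of KPNA3 also ended without 16-cell or 128-cell, and that of kpna7 without the egg or 1-cell and with edgeR. The calls of KPNA2 and KPNA5 held in every alternative run.

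Levels per transcript length could be read for the importin alpha genes that matched 1 transcript each. In unfractionated egg RNA kpna7 stood at 289 TPM (a length-corrected level deposited by the authors), KPNA1 at 6.28, KPNA3 at 4.07 and KPNA5 at 3.61. At 5.3 hpf the order was KPNA3 at 33.6, KPNA5 at 24.3, KPNA1 at 13.2 and kpna7 at 12.5 TPM. The last pair differed little, and no replicate spread exists to judge it. KPNA2, KPNA4 and KPNA6 matched no transcript alone and have no level per length here. In egg polysomes kpna7 reached 696 TPM, above all 13 other members with such a level, the next being NUP160 at 83.2.

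The late and early stages were next compared for all 45 in unfractionated RNA, before and after the onset of bulk zygotic transcription. Few nucleoporin mRNAs passed the test. Of the 45, 4 rose and 5 fell, against 22.5% and 13.0% of all genes tested, and the 22 nucleoporins gave no rise and 2 falls. The nucleoporin median was −0.08 and the receptor median 0.10, with 0.23 for all genes. The falls were NUP43 of the Y complex, from 3581, 3778, 3786 and 4631 normalized counts to 2544 and 2151 (−0.75 ± 0.22, limma adjusted p = 0.0325), and nup153 of the nuclear basket, from 11849, 10616, 13021 and 10937 to 7751 and 6925 (−0.66 ± 0.19, limma adjusted p = 0.0291). Late values of both lay below all early ones. IPO8, an import receptor close to IPO7, fell from 3307, 3459, 3451 and 3911 to 1728 and 661 (−1.72 ± 0.37, limma adjusted p = 0.0117). XPO1 rose from 5100, 5023, 4095 and 2963 to 6260 and 14001 (1.16 ± 0.37, limma adjusted p = 0.0436), and IPO11 from 2976, 3472, 3242 and 2940 to 5023 and 5251 (0.70 ± 0.20, limma adjusted p = 0.0290). The calls of XPO1 and IPO11 each ended in 8 of 13 alternatives, including TMM scaling, and those of NUP43 and nup153 in 7 and 5.

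Several other transport mRNAs changed in bound over unbound ratio along the cleavage stages. From egg to 128-cell 3 of the 45 rose and 6 fell in bound over unbound ratio, against 4.05% and 4.7% of all genes tested. Besides the importin alpha genes, KPNB1, the partner of importin alpha, went from 36215, 39160, 20441 to 13551 counts in the bound and from 5314, 7247, 11709 to 10519 in the unbound libraries, a slope of −0.88 ± 0.14 per step (limma adjusted p = 0.0037). IPO8 had 4040, 4143, 2178 and 1330 bound and 3277, 3493, 5017 and 4649 unbound counts (−0.78 ± 0.14, limma adjusted p = 0.0071). The ratio of both thus fell with lower bound and higher unbound counts. Unfractionated KPNB1 was not level over these stages, with 6072, 9720, 7023 and 12715 counts, and IPO8 had 3307, 3459, 3451 and 3911. For KPNB1 the 3 unfractionated libraries with the fewest reads all lay above the 3 with the most, a split chosen after the values were seen. nup153 fell by 0.71 ± 0.13 per step (limma adjusted p = 0.0082) and NUP37 of the Y complex by 0.83 ± 0.17 (limma adjusted p = 0.0147). In the other direction, ipo4 had 3250, 3938, 6329 and 7145 bound and 3264, 2832, 2776 and 2088 unbound counts (0.61 ± 0.12, limma adjusted p = 0.0097). XPO4 rose by 0.56 ± 0.15 per step (limma adjusted p = 0.0437), from log2 ratios of 0.50 and 0.27 to 1.79 and 1.85, a call that ended in 6 of 12 alternatives. The nucleoporins gave 2 falls and no rise, and no inner ring subunit passed, with slopes between −0.11 and 0.16. With no mean-variance trend in the fit no slope passed among these 45 or among all genes, and without the 128-cell stage that of kpna7 was the only one left.

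Around genome activation the ratio of NUP35 and of both transmembrane ring mRNAs among the 45 fell. Comparing the bound over unbound ratio at 3.5 and 5.3 hpf with that of the 4 earlier stages, 2 of the 45 rose and 5 fell, against 2.36% and 5.39% of all genes tested. NUP35, the inner ring subunit that binds membranes and NDC1, had 24364, 23538, 20611, 24053, 3252 and 3483 bound and 2335, 3224, 2190, 1721, 4328 and 3176 unbound counts. Its log2 ratio was between 2.87 and 3.80 early and −0.41 and 0.13 late, a difference of −3.46 ± 0.38 (limma interaction, adjusted p = 0.0046). Its unfractionated level, 7293, 6649, 4555, 4024, 5678 and 3067, did not pass between late and early stages (−0.39 ± 0.35). In the transmembrane ring, NUP210 went from a mean log2 ratio of 2.46 over the early stages to 0.52 at both late ones (−1.94 ± 0.34, limma adjusted p = 0.0119), and NDC1 from 1.01 to 1.72 early to −0.91 and −0.01 (−1.88 ± 0.41, limma adjusted p = 0.0239). The membrane nucleoporin pom121, outside the 45 by its symbol, did not pass (−0.81 ± 0.41, limma adjusted p = 0.26).

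Of the remaining calls 2 were receptors and 2 Y complex subunits. IPO13 went from 1.08 to 2.17 early to −0.07 and −0.86 late (−2.00 ± 0.42, limma adjusted p = 0.0211) and KPNA6 from 0.93 to 1.69 early to 0.17 and −0.09 (−1.42 ± 0.36, limma adjusted p = 0.0439). The Y complex subunits NUP43 and NUP85 rose, NUP43 from between −0.52 and −0.0049 early to 1.46 and 1.01 late, and NUP85 from between −0.74 and −0.31 early to 1.17 and 1.05 late. Their differences were 1.54 ± 0.34 and 1.57 ± 0.35 (limma adjusted p = 0.0268 for both). The other importin alpha genes did not pass, at 1.23 for KPNA4, 1.15 for KPNA1, 0.27 for KPNA5, 0.09 for KPNA2, −0.97 for KPNA3 and −2.12 ± 0.89 for kpna7. The median difference of all genes tested was −0.51 and that of the 45 was −0.27, so the falls stand against a general decline of the ratio. TMM scaling put the median of all genes at −0.24 and the control entries put it at 0.50. None of the 7 calls held with the control entries, with no mean-variance trend or without the 3.5 hpf stage, and those of NUP43 and NUP85 also ended without the egg, 1-cell, 16-cell or 5.3 hpf stage.

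**Figure D5:**
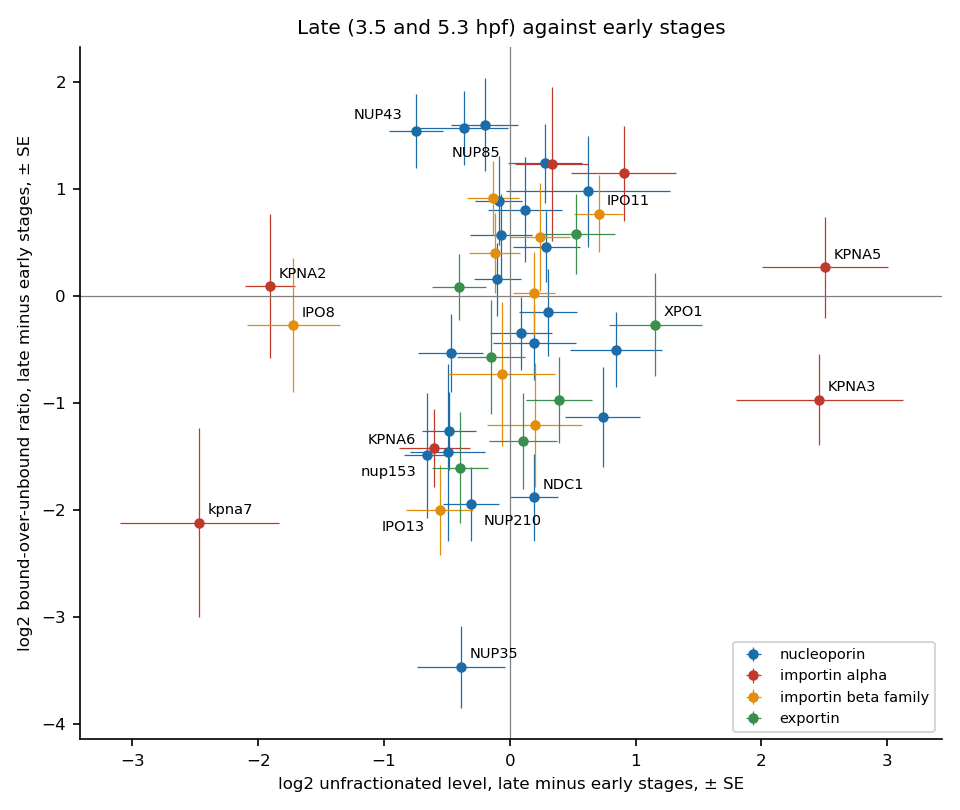
Late against early stages for the 45 mRNAs: log2 change of the unfractionated level (horizontal) and of the bound over unbound ratio (vertical), each ± SE, coloured by class, with the mRNAs that passed either test named. NUP35 lies lowest at −3.46 with an unfractionated change of −0.39, and the importin alpha genes span the horizontal axis from −2.47 to 2.51; control-entry scaling moves the median of all genes on the vertical axis from −0.51 to 0.50.

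Genes of the pathway that carry other names, together with 6 nuclear lamina genes, were taken from a list of 36 symbols. These matched 28 gene entries, 2 of them with the symbol TPR. Between the fractions 10 of the 28 were higher in the bound one and 2 lower, against 8.46% and 7.1% of all genes tested. The higher ones were 5 of 10 nucleoporin entries, 1 of 5 Ran system genes and 4 of 6 lamina genes. Both TPR entries count among the 5, and reads may be shared between them. Of 7 receptors none was higher and 2 were lower. The basket scaffold TPR, listed as 2 genes with that symbol, had log2 ratios of 2.52 and 2.70, RANBP2 of the cytoplasmic filaments 2.07, the Ran exchange factor RCC1 2.76 and the lamin LMNB1 2.83, all called by limma at adjusted p of 0.0011 or less. NUTF2 and nutf2l, carriers of Ran, were the 2 lower ones, at −1.06 and −1.47. CSE1L, the exportin that returns importin alpha to the cytoplasm, fell by 1.34 ± 0.18 per step from egg to 128-cell (limma adjusted p = 0.0022) and by 1.55 ± 0.35 in unfractionated RNA late against early (limma adjusted p = 0.0134). RAN itself rose by 0.57 ± 0.15 per step (limma adjusted p = 0.0379). By late against early stages 3 of the 28 rose and 7 fell in unfractionated RNA, against 22.5% and 13.0% of all genes. All 3 rises were lamina genes, and the falls were 2 nucleoporins, 4 receptors and 1 Ran system gene. By ratio 2 of the 28 rose and none fell, against 2.36% and 5.39%.

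The libraries held between 30671815 and 71646639 assigned reads. The zygotic markers tbx16, noto, mxtx2, grhl3 and krt18a.1 were higher late in unfractionated RNA, and 5 of 6 maternal egg markers were lower, ZAR1 being the one that did not pass. The 3 unfractionated libraries with the fewest reads (1-cell, 128-cell and 5.3 hpf) all lay above the 3 with the most for 10 of the 45 mRNAs, 8 of them nucleoporins, against 3.87% of all genes tested. This split was chosen after the values were seen, and the libraries with the fewest reads are also every other stage in order. The part of depth in the unfractionated comparisons was not tested.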

How the data were processed

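Polysome-bound, unbound and unfractionated RNA of 6 stages gave 18 libraries. Per the submitters' processing notes, the build was GRCz10 and the tools included DESeq2, Salmon 0.6.0 and STAR 2.4.2a, with no roles given. The authors' gene table holds a normalized signal. For genes matched to 1 transcript it was estimated counts divided by 1 size factor per library. For other genes a further gene-specific correction was inferred, and it could not be recovered. Between 45.8% and 49.7% of the values above 0 in the gene table came out as whole reads (tolerance 0.001 reads), so no count test was the main one. The transcript files, per the file headers, hold TPM and estimated counts deposited by the authors. Estimated counts were rounded, and 12794 genes (14 of the 45) matched 1 transcript in all libraries within 0.51 reads.

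limma 3.58.1 was fitted to log2(normalized count + 1) over genes with at least 10 counts in at least 2 libraries. The added 1 understates fold changes of genes with low counts. The members were taken from gene symbols, which matched 22547 of 27015 genes. Members and lists were chosen with earlier results of these data known. All importin alpha genes were named, with up to 6 called members per direction by smallest adjusted p and up to 4 abundant uncalled ones; others appear in counts and ranges or as named subunits. Alternatives were other scalings, filters, pseudocounts, no trend, no block, each stage left out, and edgeR 4.0.16 on the matched genes. Tested on simulated data, log2 changes of 2 were recovered for 100% of genes between fractions, 95.9% in unfractionated RNA and 81% for the late ratio. For the slope a change of 2 per stage step was recovered for 91%. The simulated counts had the same dispersion for all genes and no stage differences beyond the set change. These shares therefore do not give the recovery in the real libraries, whose spread between stages differs by gene.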

Additional observations from a re-analysis of the deposited data

Results flagged for a closer look

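By the limma interaction term, 7 of the 45 mRNAs had another bound over unbound ratio at 3.5 and 5.3 hpf than over the 4 early stages. The ratio was lower late for 5 and higher for 2, against 5.39% and 2.36% of all genes tested. The median log2 difference of all genes tested was −0.51. The log2 differences were −3.46 for NUP35, −1.94 for NUP210, −2.00 for IPO13, −1.88 for NDC1 and −1.42 for KPNA6, and 1.57 for NUP85 and 1.54 for NUP43. Each call ended with no mean-variance trend, with the control entries and without the 3.5 hpf stage, and that of KPNA6 also ended with library totals, TMM and median centring. NUP35 kept its call in 11 of 14 alternatives, NUP210 in 10 of 15, NDC1 in 9 of 14, IPO13 in 8 of 15, NUP43 and NUP85 in 7 of 14 each, and KPNA6 in 3 of 14. The calls of NUP43 and NUP85 also ended without the egg, 1-cell, 16-cell or 5.3 hpf stage.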

How the results depend on the processing

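Between fractions, 18 mRNAs were called higher and 0 lower, where all 24893 genes tested gave 2106 and 1768. Library totals gave 10 and 4, where all genes gave 1119 and 6028. The control entries gave 0 and 14, where all genes gave 161 and 12588. With no trend 11 were higher, against 1349 of all genes. With edgeR 7 of 14 matched genes were called, against 777 higher among all 12016 matched genes tested. Leaving out 1 stage gave 9 to 21 higher, with 9 without 16-cell and 11 without 128-cell. All genes gave 1132 higher without 16-cell and 1233 without 128-cell. With the control entries the ratio changed sign for 29 of the 45, 9 of them called (NUP155, NUP88, NUP160, NUP188, NUP205, ipo4, KPNA6, XPO1 and KPNB1), and stood at −0.49 for KPNA6, −1.34 for KPNA5, −1.36 for IPO5, −0.65 for kpna7, −0.78 for KPNA3 and −0.96 for KPNA4. In unfractionated RNA, 4 rose and 5 fell. Rises were 2 with TMM, median centring, no trend or edgeR. Falls were 17 with median centring, 3 with no trend and 0 with edgeR. Of all 23949 genes tested, 5380 rose and 3120 fell in the main fit. Median centring gave 4067 and 6589 of all genes, and no trend 5265 and 2169. Without 1 stage there were 1 to 9 rises and 2 to 9 falls (9 and 9 without 3.5 hpf, 1 and 2 without 5.3 hpf), and the nucleoporin median minus the receptor median, −0.18, lay between −0.26 and −0.045. For the late against early ratio, 2 rose and 5 fell; rises were 4 with library totals, TMM or median centring, both counts were 0 with the control entries or no trend, edgeR gave 0 and 1, and without 1 stage there were 0 to 3 rises and 0 to 5 falls (0 and 0 without 3.5 hpf), with a class difference of −0.29 to 0.15 around 0.02. Of all 24893 genes tested, the late against early ratio rose for 587 and fell for 1342 in the main fit. TMM gave 898 and 834 of all genes, the control entries 315 and 29, and no trend 0 and 1. For the slope, 3 rose and 6 fell. Both counts were 0 with the control entries or no trend, where all 22250 genes gave 29 and 82 or 0 and 0. With edgeR the counts were 1 and 1. Without 1 stage there were 0 to 3 rises and 1 to 8 falls (0 and 1 without 128-cell). The cause was not tested, except that leaving out a stage leaves fewer libraries and edgeR covers fewer genes. The control entries held too few reads in unfractionated RNA to scale it. Bound and unbound libraries were paired by stage in the fit, and without this stage block 16 were called higher and 0 lower. The labels carry no replicate numbers. Scale between fractions, and 1 library per group, limit what these data can show.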

Other observations

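Of 6 nuclear lamina genes, LBR, BANF1, LMNB1 and LMNB2 were higher in the bound fraction (limma, log2 ratios of 1.22, 1.08, 2.83 and 1.56), and LMNA and emd were not called, against 8.46% of all genes tested. In unfractionated RNA LMNA, LBR and emd rose late, by 1.50, 0.79 and 2.52 on the log2 scale, against 22.5% of all genes.

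The unfractionated level of some nucleoporins alternated from stage to stage. That of nup54 was 187, 538, 205, 542, 279 and 901 normalized counts from egg to 5.3 hpf, and that of nup214 was 2509, 3608, 2741, 4621, 2926 and 4795. The 3 higher libraries were those with 35775623, 41065794 and 49179974 assigned reads, and the 3 lower ones had 57099646, 60152534 and 54412025. This split by depth was chosen after the values were seen, and the part of depth was not tested.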
